A study of Mus musculus with 4 samples.

Results

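The Frizzled receptors were followed as the 10 genes *Fzd1* to *Fzd10*, chosen by name, in the single-cell transcriptomes of 4 mouse neural stem cell (NSC) lines. All 10 were found among the 27612 genes listed in at least 1 line. The normalized tables, which leave out rare genes, listed 10 members in XN1 and CN4, 9 in XN4 (without *Fzd10*), and 9 in KN1 (without *Fzd6*). The lines were made from epiblast stem cells (EpiSCs) of the 129 mouse strain, cultured cells that the paper takes to represent the mature epiblast. The growth factors EGF and FGF2 (each at 10 ng/ml) were given to every line. XN4 and XN1 also received 10 µM XAV939, a Wnt pathway inhibitor. For XN4 it came from supplier B, and for XN1 from supplier A, whose compound formed crystals in the medium. KN1 received neither compound, and CN4 received 2 µM CHIR99021, a Wnt pathway activator. XN1 and KN1 belonged to derivation series 1, and XN4 and CN4 to series 4. Each line was 1 BD Rhapsody library, a method that pairs single cells with barcoded beads in small wells. The compound, the line, and the library therefore cannot be told apart, and no p-value was computed between lines.

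Frizzleds are receptors for Wnt proteins, which they bind through a cysteine-rich domain outside the cell. Together with the coreceptors Lrp5 and Lrp6, they act through Dishevelled proteins (Dvl) to stabilize β-catenin, which turns on target genes such as *Axin2*. With other partners, among them Ror and Ryk receptors and the polarity proteins Vangl and Celsr, they orient cells within a sheet and guide axons. In the developing nervous system, graded Wnt signals help to set anteroposterior and dorsoventral regions. The membrane ligases Znrf3 and Rnf43 remove Frizzleds from the cell surface, and Lgr receptors that bind R-spondins counter this removal.

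All Frizzleds carry in their tail inside the cell a short motif, written KTXXXW after its residues, which contacts Dishevelled. The codons of this motif are shown because they give the family's shared signaling element. In each line, the 18 bases in capitals are the codons of the motif, and 6 coding bases stand on either side. They were read 5′ to 3′ on the coding strand from transcripts of GENCODE M21, the coordinates are those of GRCm38, and all stretches lie in coding exons.
Fzd1, chr5:4755700-4755729, minus strand: tccggcAAGACACTGAATTCCTGGaggaag
Fzd2, chr11:102606367-102606396, plus strand: tccggcAAGACACTGCACTCGTGGaggaag
Fzd7, chr1:59484601-59484630, plus strand: tcgggcAAGACCCTGCAGTCATGGcgtcgc
Fzd5, chr1:64735005-64735034, minus strand: tccggcAAGACTCTGGAGTCTTGGcggcgg
Fzd4, chr7:89408235-89408264, plus strand: tctgccAAAACTCTTCACACGTGGcaaaag
Fzd9, chr5:135249410-135249439, minus strand: agttccAAGACTTTTCAGACTTGGcagagc
Fzd10, chr5:128602790-128602819, plus strand: acttccAAGACCCTGCAGTCCTGGcaacac
Fzd3, chr14:65212101-65212130, minus strand: agcaaaAAGACATGCTTTGAATGGgccagt
Fzd6, chr15:39033943-39033972, plus strand: agcaaaAAGACGTGCACAGAATGGgccggg

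The motif was found 1 time in the coding sequence of each of the 10 members, and that of *Fzd8* is not shown. It stood 17 codons before the end in *Fzd1*, *Fzd2*, and *Fzd7*. In *Fzd3* and *Fzd6*, it was followed by 159 and 206 codons. In *Fzd4*, *Fzd5*, *Fzd8*, *Fzd9*, and *Fzd10*, 33 to 74 codons followed. The motif codons of *Fzd7* and *Fzd10* were identical in 17 of 18 bases, and those of *Fzd3* and *Fzd6* in 14 of 18. The transcripts as a whole were well separated, since 0 of 45 pairs of members shared a run of 50 bases.

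*Fzd1* (chr5:4753839-4758035), *Fzd2* (chr11:102604396-102608058), *Fzd7* (chr1:59482424-59486955), *Fzd9* (chr5:135248938-135251230), *Fzd10* (chr5:128600844-128604093), and *Fzd8* are genes of 1 exon. *Fzd4* (chr7:89404355-89413134) and *Fzd5* (chr1:64730558-64737751) have 2 exons each. *Fzd3* (chr14:65192449-65262463) covers 70015 bases, of which 12804 are exonic in 8 blocks, and *Fzd6* (chr15:39006034-39038188) has 9 blocks. Reads in introns were counted for CN4, XN1, and XN4, and the setting for KN1 is not given. The level of *Fzd3* may therefore include them to an unknown extent, which may differ in KN1. *Fzd3*, *Fzd5*, and *Fzd6* each overlap a gene on the opposite strand (*Gm9086*, *Gm38058*, and *Gm26704*), and *Fzd3* also overlaps *Gm27263* on its own strand. The sources used here do not state whether reads were counted by strand, so the reads of these genes cannot be told apart with certainty.

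Levels are given in RPM, the summed reads of a gene scaled to a total of 1e+06 reads in the normalized table of a line, with an exact 95% Poisson interval where an interval is shown. A cell fraction is the percentage of cells with at least 1 read, with the complete read tables as the base for CN4 (18157 cells), XN1 (14452), and XN4 (8741), and the 3975 normalized cells as the base for KN1. The normalized tables held 19271688 to 41539513 reads in 3448 to 3975 cells. Reads are not unique molecules, but the intervals of levels and of level ratios treat each read as independent. They are thus too narrow even for counting error, most of all where a captured cell held many reads. No interval covers differences between cultures. The libraries differed in depth and complexity. The median KN1 cell of the normalized table had 833 genes from 5862 reads, whereas the medians of the other lines were 2257 to 2824 genes from 4637 to 7796 reads. A KN1 cell with *Fzd1* had 5.41 reads of it on average, compared with 1.67 to 2.96 in the other lines, so a given KN1 level rested on fewer cells. Fractions were therefore also taken after thinning cells to 3200 reads, for which shallower cells were left out (543 of XN4, 776 of XN1, 290 of CN4, and 579 of KN1). At this depth, KN1 cells still had a median of 766 genes and the other lines 1647.5 to 1847. Between the normalized tables of any 2 lines, 14 to 21 cell indices were the same.

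The cell type label was checked against 12 neural stem cell markers. In XN1, KN1, and CN4, *Sox2* was captured in 63.5%, 13.9%, and 85.9% of cells and *Fabp7* in 85.5%, 29%, and 98.5%, respectively. In XN4, 3 of the 12 markers were captured in at least 10% of cells, compared with 9 in XN1, 6 in KN1, and 11 in CN4. The 3 were *Vim* (84.8%), *Slc1a3* (23.6%), and *Msi1* (17.8%), of which *Vim* is also made by connective tissue cells. The defining markers of XN4 went against its label, since *Sox2* was captured in 0.561% and *Pax6* in 0.412% of cells. *Fabp7* and *Hes5* were captured in 0 of 8741 cells. A count of 0 was taken to allow up to 3 cells, or a captured share of 0.0343%. Of the 8 connective tissue markers, 7 were captured in at least 10% of XN4 cells, including the collagen gene *Col3a1* in 97.7%. In XN1, KN1, and CN4, 1, 0, and 1 of the 8 reached 10%. The summed level of this marker list was 8256 RPM in XN4 and 7.66 to 194 in the other lines. The part of this difference in the XN4 Frizzled values was not tested. Stray reads were gauged with 9 genes of other organs, the highest of which was captured in 0.252% of XN4, 0.0415% of XN1, 0.377% of KN1, and 0.0551% of CN4 cells.

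The Frizzleds were unevenly spread over the lines. *Fzd2* led in XN4, *Fzd9* stood out in XN1, and *Fzd10* stood out in CN4, whereas *Fzd1* varied little outside KN1. *Fzd3* was lowest in XN4 and highest in CN4, where it was 1.67-fold above XN1. The summed level of the family was 413 RPM in XN4 (407 to 419), 637 in XN1 (625 to 648), 749 in CN4 (738 to 760), and 261 in KN1 (255 to 267). The 4 intervals did not overlap, and the sum was lowest in KN1. The order of the highest lines turned with the scale. Per kilobase of exon, the sum was 141 RPM in XN1, 127 in CN4, 91.9 in XN4, and 38.5 in KN1, and without *Fzd3* the plain sum was 411 RPM in XN1, 375 in XN4, 371 in CN4, and 110.1 in KN1. Between the line with the highest and that with the lowest level, the 8 members listed in all 4 lines and captured in at least 5% of the cells of a line differed by a median of 6.86-fold, and 8 of 8 differed at least 2-fold. Without *Fzd8* and *Fzd9*, which in KN1 and XN4, respectively, were not clear of stray reads, the median was 3.68-fold over 6 members. These include *Fzd5*, whose fraction in KN1, its lowest line, had an interval that included the stray level. For all 10454 genes that met the same conditions, the median was 2.59-fold and 67.2% differed at least 2-fold. Of these 8 members, 4 were highest in XN4, 3 in XN1, 1 in CN4, and 0 in KN1, beside 27.5%, 18.7%, 24%, and 29.9% of all genes. The XN1 count includes *Fzd1*, which could not be told apart from CN4.

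**Figure D1:**
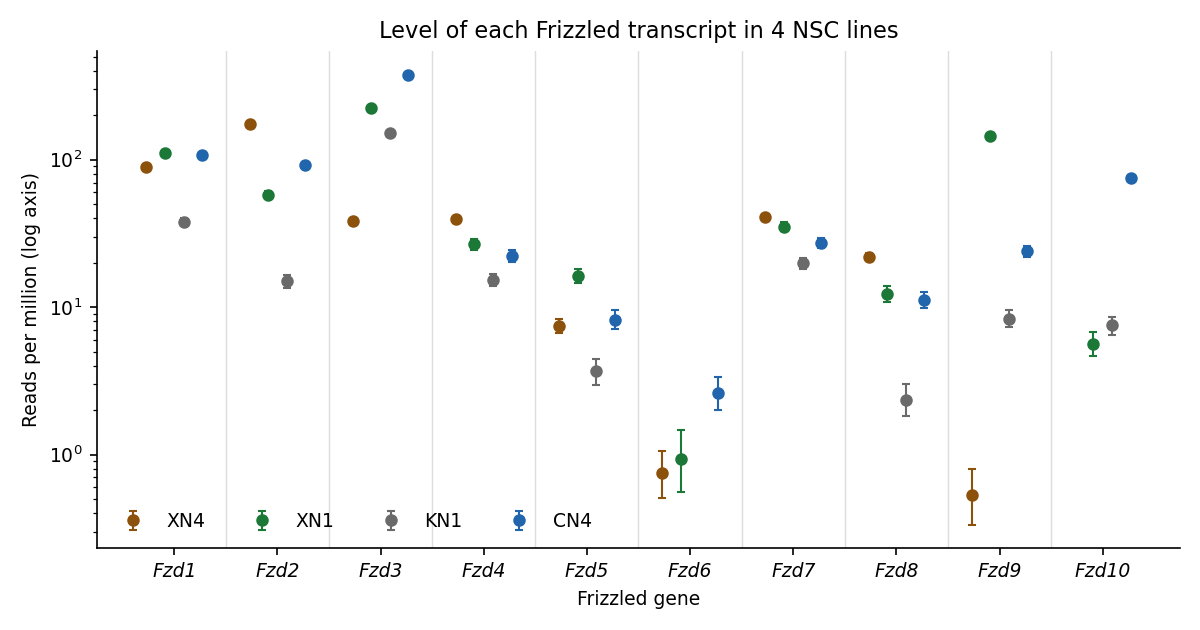
Level of each Frizzled transcript (RPM, log axis) in XN4, XN1, KN1, and CN4. Points are single libraries and bars are exact 95% Poisson intervals. *Fzd9* ran from 0.530 in XN4 to 145 in XN1, and *Fzd10* reached 75.3 in CN4. *Fzd6* in KN1 and *Fzd10* in XN4 were not listed.

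*Fzd1*, *Fzd2*, and *Fzd7* form a subfamily of closely related receptors that pass Wnt signals to β-catenin. The *Fzd1* level was 89.2 RPM in XN4, 111 in XN1, 108 in CN4, and 38.1 in KN1. XN1 and CN4 could not be told apart by counting error, as the CN4 to XN1 ratio was 0.977 (0.922 to 1.04). *Fzd1* was captured in 33.0% of XN4, 34.8% of XN1, 4.88% of KN1, and 40.9% of CN4 cells, and after thinning in 18.2%, 26.4%, 4.03%, and 24%, respectively. The *Fzd1* fraction of CN4 was thus the highest at full depth, and after thinning the intervals of XN1 (24.9% to 28.0%) and CN4 (22.6% to 25.6%) overlapped.

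*Fzd2* was more uneven. Its level was 175 RPM in XN4, 58.0 in XN1, 92.2 in CN4, and 14.9 in KN1. XN4 was 3.01-fold above XN1 (2.83 to 3.21) and 1.89-fold above CN4 (1.80 to 1.99), and no intervals of the 4 levels overlapped. It was captured in 51.6% of XN4, 20.2% of XN1, 2.39% of KN1, and 39.0% of CN4 cells, with the same order after thinning (33.9%, 14.0%, 1.83%, and 22.2%).

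*Fzd7*, which is known from pluripotent cells and early neural tissue, was the most even member. Its level was 40.8 RPM in XN4, 35.2 in XN1, 27.1 in CN4, and 19.9 in KN1. The highest and the lowest lines differed 2.05-fold (1.86 to 2.26). *Fzd7* was captured in 21.6% of XN4, 14.2% of XN1, 3.19% of KN1, and 14.5% of CN4 cells. After thinning, XN4 (10.1%; 9.08% to 11.1%) and XN1 (9.68%; 8.67% to 10.8%) overlapped.

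*Fzd5* and *Fzd8* form another pair of related receptors, both known from forebrain and eye development, and both were rare. The *Fzd5* level was 7.44 RPM in XN4, 16.3 in XN1, 8.24 in CN4, and 3.66 in KN1. XN1 was the highest line, and XN4 and CN4 could not be told apart (ratio of 0.903; 0.751 to 1.09). *Fzd5* was captured in 3.54% of XN4, 6.77% of XN1, 0.453% of KN1, and 4.30% of CN4 cells. The *Fzd8* level was 21.9 RPM in XN4, 12.3 in XN1, 11.2 in CN4, and 2.36 in KN1. XN4 was the highest line, and CN4 and XN1 could not be told apart (ratio of 0.914; 0.763 to 1.10). *Fzd8* was captured in 11.5% of XN4, 4.91% of XN1, 0.302% of KN1, and 6.36% of CN4 cells. In KN1, the *Fzd8* fraction was below that of the highest stray gene and was read as background by that measure, and 1 of the 12 cells with *Fzd8* held 21.5% of its 65 reads. By reads, however, the *Fzd8* level of KN1 (1.82 to 3.01 RPM) lay above that of the stray genes *Ptprc* and *Ins2* (each 0.580; 0.332 to 0.943), with 5.42 reads per captured cell against 1.07 and 1.45. The *Fzd5* fraction of KN1, from 18 cells, had an interval (0.269% to 0.715%) that included the stray level.

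*Fzd4* is the receptor for the ligand norrin (*Ndp*) as well as for Wnts and is known for its role in blood vessels of the retina. Its level was 39.4 RPM in XN4, 26.7 in XN1, 22.2 in CN4, and 15.3 in KN1. The fractions were 18.7% of XN4, 10.0% of XN1, 1.66% of KN1, and 11.6% of CN4 cells. XN4 was again the highest line and KN1 the lowest, with a difference of 2.57-fold (2.30 to 2.86). After thinning, the XN4 (8.75%; 7.82% to 9.75%) and XN1 (7.13%; 6.25% to 8.09%) fractions overlapped.

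*Fzd9* and *Fzd10* differed most between lines, and in different lines. *Fzd9*, known from hippocampus and neural precursors, was at 0.530 RPM in XN4, 145 in XN1, 24 in CN4, and 8.34 in KN1. XN1 was 6.04-fold above CN4 (5.51 to 6.63) and 17.4-fold above KN1 (15.2 to 20.0). Its fold over XN4 had an interval of 181 to 438. The XN4 level rested on 22 reads, and its interval (0.332 to 0.802) overlapped that of the stray gene *Ptprc* (0.132 to 0.474), so the folds over XN4 rest on a level that was not clear of stray reads. *Fzd9* was captured in 39.4% of XN1 cells (31.5% after thinning), 12.3% of CN4 cells (6.49%), and 1.21% of KN1 cells (0.824%). In XN4, it was captured in 32 of 8741 cells, or 0.366% (0.251% to 0.516%), an interval that reached down to the stray level.

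*Fzd10*, known from the dorsal spinal cord and the early neural tube, was at 75.3 RPM in CN4, 7.51 in KN1, and 5.66 in XN1. CN4 was 10.0-fold above KN1 (8.68 to 11.6) and 13.3-fold above XN1 (11 to 16.3), and KN1 and XN1 lay close together (ratio of XN1 to KN1, 0.753; 0.592 to 0.954). *Fzd10* was captured in 31.7% of CN4 cells (18.3% after thinning), 2.06% of XN1 cells (1.63%), and 1.08% of KN1 cells (0.883%). In XN4, 3 of 8741 cells had 1 read each, and this share of 0.0343% (0.00708% to 0.100%) was below the stray level. Among the 3 lines that captured both genes above the stray level, *Fzd9* was the higher of the pair in XN1 and *Fzd10* in CN4, on the scale of RPM per kilobase of exon (63.2 against 1.74 in XN1, and 10.5 against 23.2 in CN4), and in KN1 *Fzd9* was at 3.64 and *Fzd10* at 2.31.

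*Fzd3* and *Fzd6* act in planar cell polarity, and *Fzd3* is needed for the growth of long axon tracts. *Fzd3* was at 38.2 RPM in XN4, 225 in XN1, 377 in CN4, and 151 in KN1. It was captured in 17.5% of XN4, 58.1% of XN1, 16.3% of KN1, and 80.8% of CN4 cells, more than any other member in XN1, KN1, and CN4. After thinning, the fractions were 8.60%, 45.5%, 14.7%, and 62.9%, respectively, with KN1 above XN4. CN4 was 9.89-fold above XN4 (9.37 to 10.4) and 1.67-fold above XN1 (1.61 to 1.74). The part of intronic reads in the *Fzd3* level was not tested.

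*Fzd6* was scarce in every line that listed it. Its level was 0.746 RPM in XN4, 0.934 in XN1, and 2.61 in CN4, and XN4 and XN1 could not be told apart (ratio of 0.799; 0.433 to 1.52). It was captured in 22 XN4 cells (0.252%), which was no more than the highest stray gene, in 69 XN1 cells (0.477%), and in 289 CN4 cells (1.59%). By reads, its XN4 level (0.507 to 1.06 RPM) lay above that of the stray gene *Ptprc* (0.132 to 0.474). The CN4 to XN1 ratio was 2.80 (1.63 to 5.04).

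**Figure D2:**
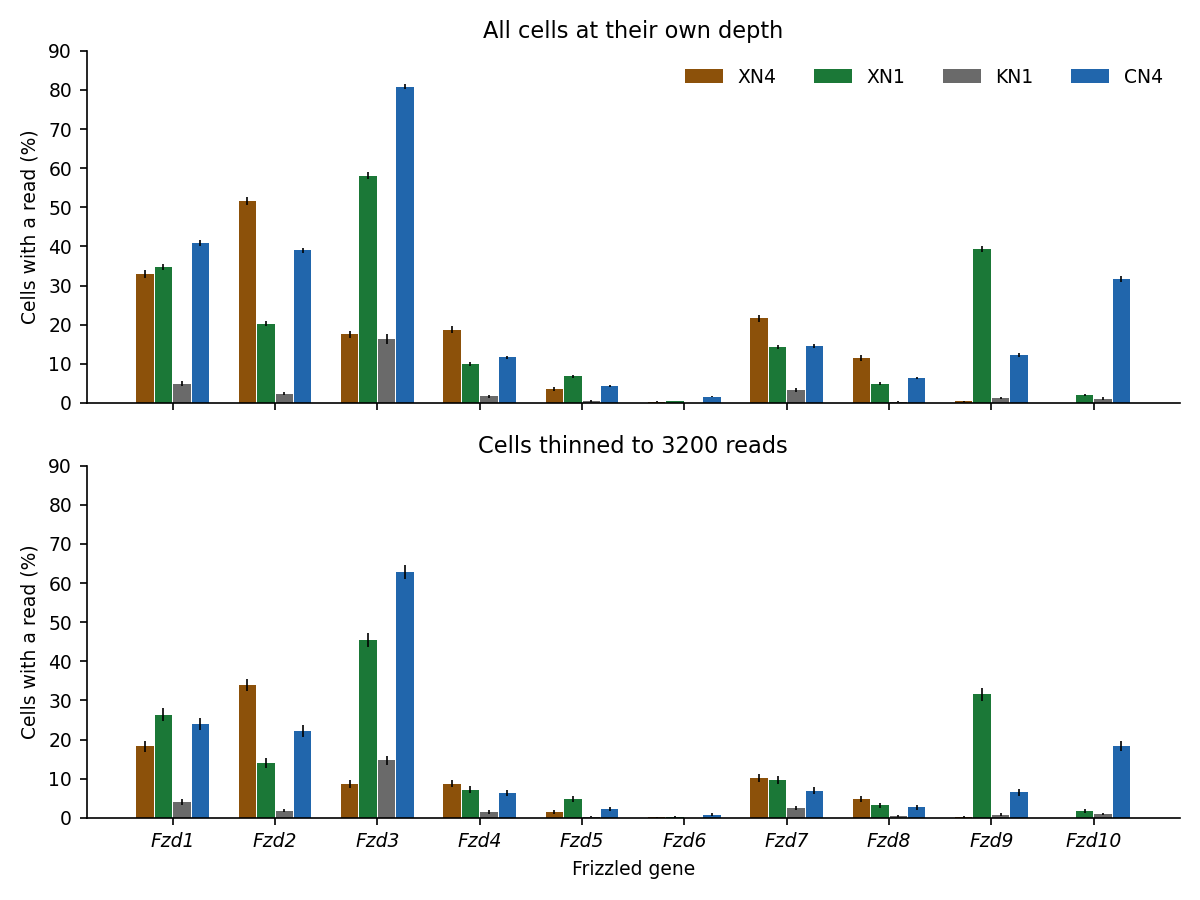
Percentage of cells with a read of each Frizzled gene in the 4 lines, over all cells at their own depth (upper panel) and after thinning to 3200 reads (lower panel), with exact 95% binomial intervals as bars. *Fzd3* reached 80.8% of CN4 cells at full depth and 62.9% after thinning. KN1 fractions are the lowest for most members, though *Fzd9*, *Fzd10* at full depth, and *Fzd3* after thinning are lower in XN4. The median thinned KN1 cell had 766 genes.

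To rank members within a line, the levels were divided by the summed length of the exons of each gene, and are given as RPM per kilobase. The beads take up transcripts by their poly(A) tails, so this scale is approximate, and any intronic reads would add to the value of *Fzd3*. In XN4, *Fzd2* ranked first at 47.7 and made up 51.9% of the length-scaled sum of the family, followed by *Fzd1* at 21.2 and *Fzd7* at 9.0. In XN1, *Fzd9* ranked first at 63.2 (44.8% of the sum), followed by *Fzd1* at 26.5 and *Fzd3* at 17.6. In KN1, *Fzd3* ranked first at 11.8 (30.6%), followed by *Fzd1* at 9.07. In CN4, *Fzd3* at 29.5 (28.8 to 30.1), *Fzd1* at 25.8 (24.8 to 26.9), *Fzd2* at 25.2 (24.1 to 26.3), and *Fzd10* at 23.2 (22.1 to 24.3) lay close together, and the intervals of *Fzd1* and *Fzd2* and those of *Fzd2* and *Fzd10* overlapped. On this scale, *Fzd1* was in second place in XN4, XN1, and KN1, and in CN4 second place was not settled between *Fzd1* and *Fzd2*. The ranks depend on the scale. In plain RPM, *Fzd3* (225) led in XN1, followed by *Fzd9* (145) and *Fzd1* (111).

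All 6 pairs of lines were compared for members that differed at least 2-fold in RPM, among genes listed in both lines and captured in at least 1% of the cells of either. A gene that meets the capture condition in its higher line alone is prone to pass the fold, and the comparisons share libraries, so the counts are descriptions. They are set beside the percentage of all genes past the same fold. Between XN1 and KN1, 5 of 9 members differed, all higher in XN1, beside 46.9% of all genes. These were *Fzd1* (2.92-fold), *Fzd2* (3.88-fold), *Fzd5* (4.45-fold), *Fzd8*, and *Fzd9* (17.4-fold), and *Fzd6* was not counted. As the KN1 fraction of *Fzd8* was at the level of stray genes, no fold over KN1 is given for it, and without it the count was 4 of 8. That count keeps *Fzd5*, whose KN1 fraction had an interval that included the stray level. All genes were split almost evenly, with 23.0% higher in XN1 and 23.9% higher in KN1.

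Between CN4 and KN1, 7 of 9 members differed, all higher in CN4, beside 42.1% of all genes (21.4% higher in CN4). Without *Fzd8*, the count was 6 of 8. *Fzd10* (10.0-fold) and *Fzd2* (6.17-fold; 5.55 to 6.87) differed most among these, and *Fzd4* (1.45-fold) and *Fzd7* (1.36-fold) did not reach 2-fold. Between XN4 and KN1, 8 of 8 members differed beside 43.9% of all genes, with 6 higher in XN4 and 2 higher in KN1. Without *Fzd8* and *Fzd9*, which was not clear of stray reads in XN4, the count was 6 of 6. *Fzd5* stayed in all of these counts against KN1, although it met the capture condition in the other line alone. Its KN1 fraction (0.453%) had an interval that included the stray level. *Fzd2* (11.7-fold; 10.6 to 12.9) was higher in XN4, and *Fzd5* (2.03-fold) and *Fzd7* (2.05-fold) were just past the fold. *Fzd3* (3.95-fold; 3.73 to 4.19) and *Fzd9* were higher in KN1. *Fzd6* and *Fzd10* were not counted. The median log2 ratio of the counted members was 1.54 for XN1, 1.51 for CN4, and 1.13 for XN4 over KN1 (1.18, 1.42, and 1.13 without the members not clear of stray reads), beside 0.02, 0.09, and 0.06 for all genes. At 3-fold in place of 2-fold, 4 of 9 members differed between XN1 and KN1, 3 of 9 between CN4 and KN1, and 4 of 8 between XN4 and KN1, beside 26.3%, 21.8%, and 25.7% of all genes. Each of these counts includes *Fzd8*, which was not clear of stray reads in KN1. That of XN4 also includes *Fzd9*, which was not clear of them in XN4. KN1 cells had few genes. In the cells with at least 1000 genes, which were 34.7% of KN1 cells and 93.3% to 99% of the cells of the other lines, the 3 counts were the same (5, 7, and 8). This floor lies below the medians of the other lines (2257 to 2824 genes), so it does not make the lines alike in genes per cell. The part of gene number in the counts was not tested.

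XN1 and CN4, the lines with inhibitor from supplier A and with activator, had the smallest share of all genes past the fold. Here, 3 of 10 members differed beside 17.6% of all genes (8.33% higher in CN4 and 9.29% higher in XN1). *Fzd10* (13.3-fold) and *Fzd6* (2.80-fold) were higher in CN4, and *Fzd9* (6.04-fold) was higher in XN1. *Fzd6* was counted because of its fraction in CN4 alone. *Fzd5* was just short of the fold, at 1.98-fold higher in XN1 (1.65 to 2.38). The median log2 ratio was -0.08, beside 0.10 for all genes.

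XN4 and XN1 received the same inhibitor from different suppliers. Between them, 4 of 8 members differed beside 31.2% of all genes. *Fzd2* (3.01-fold) was higher in XN4, and *Fzd9*, *Fzd3* (5.91-fold; 5.58 to 6.26), and *Fzd5* (2.19-fold; 1.87 to 2.57) were higher in XN1. Without *Fzd9*, the count was 3 of 7. Between XN4 and CN4, 3 of 9 members differed beside 33.1% of all genes, all higher in CN4, as were 15% of all genes. They were *Fzd3* (9.89-fold), *Fzd9*, and *Fzd6*, and without the latter 2, which were not clear of stray reads in XN4, the count was 1 of 7. *Fzd10*, which XN4 did not list, was not counted in either comparison, and *Fzd6* was too rare to be counted between XN4 and XN1. With the tables of all reads, in which *Fzd10* and *Fzd8* also passed the fold, 5 of 10 members differed between XN4 and CN4, beside 36.2% of all genes. This count includes *Fzd6*, *Fzd9*, and *Fzd10*, which were not clear of stray reads in XN4.

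**Figure D3:**
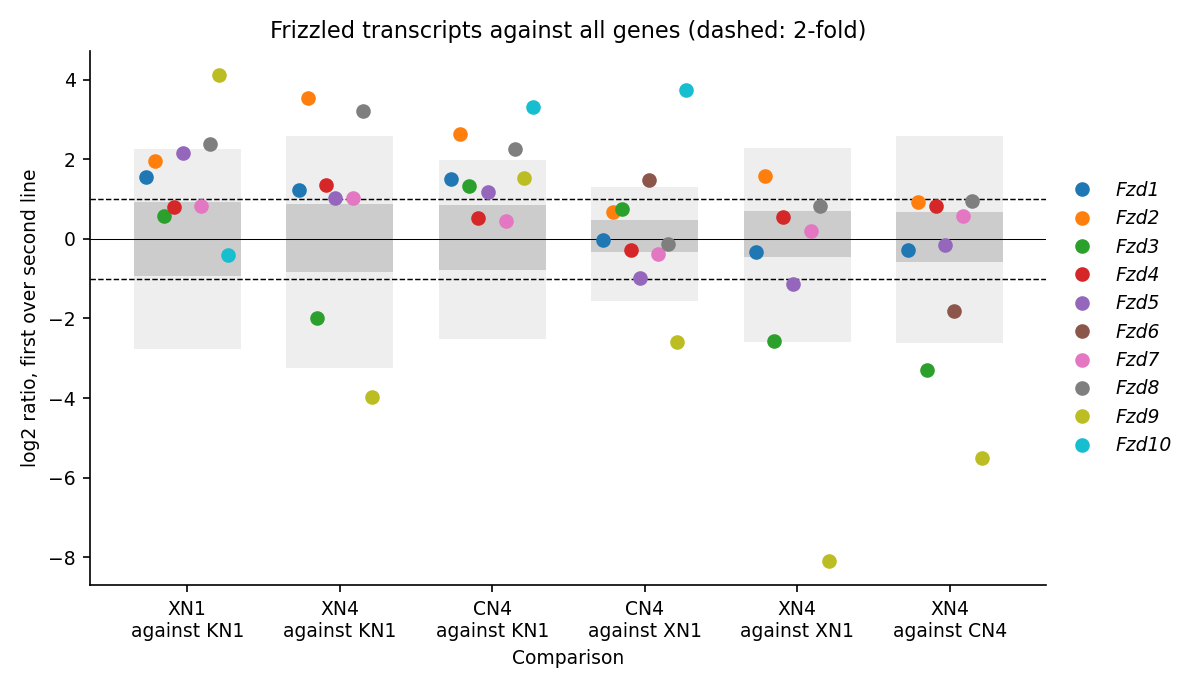
log2 ratio of each counted Frizzled gene (colored points) in the 6 comparisons of lines, first line over second. Dark and light grey bars hold the middle 50% and 90% of all genes, and dashed lines mark 2-fold. *Fzd9* lies outside the light bar in all 6 comparisons except CN4 over KN1, and the 3 comparisons with KN1 have most members above 0.

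The number of Frizzled genes captured in the same cell was counted next. After thinning, cells had a mean of 1.53 members in CN4, 1.44 in XN1, 0.861 in XN4, and 0.268 in KN1. No member was captured in 38.8% of XN4, 18.3% of XN1, 75.5% of KN1, and 14.6% of CN4 cells. At least 2 members were captured in 20.3%, 43.6%, 2.18%, and 47.0%, respectively. At full depth, 94.3% of CN4, 88.7% of XN1, 74.6% of XN4, and 27.5% of KN1 cells had at least 1 member, and the richest cell had 8 members in CN4, 7 in XN1 and XN4, and 4 in KN1. At equal reads, more Frizzled genes were thus captured per cell in XN1 and CN4 than in XN4. Thinned XN4 cells also had fewer genes of any kind, with a median of 1647.5 against 1808 in XN1 and 1847 in CN4. The part of this in the Frizzled counts was not tested.

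**Figure D4:**
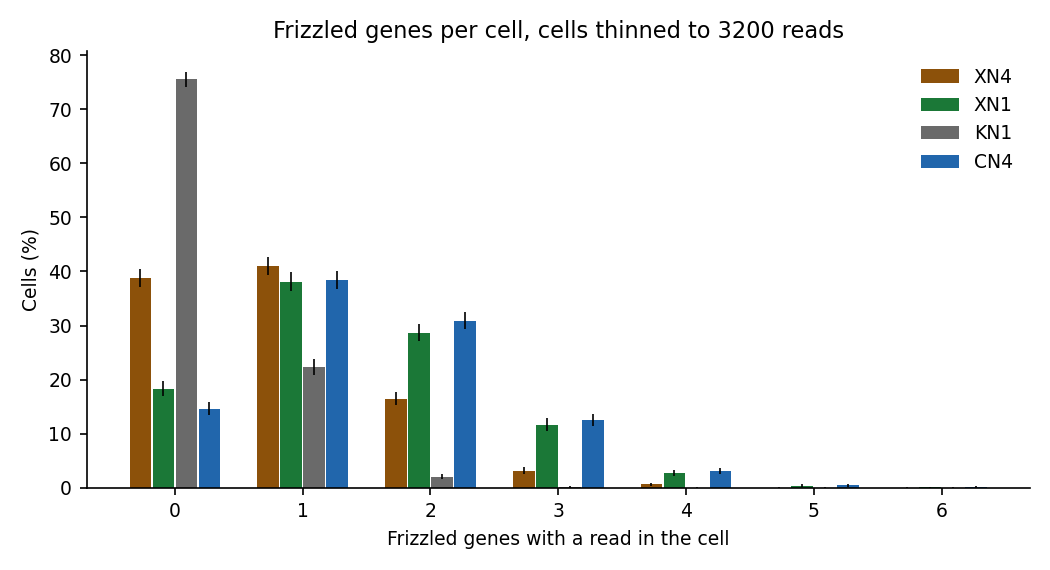
Percentage of cells with reads of 0 to 6 Frizzled genes after thinning to 3200 reads, by line, with exact 95% binomial intervals. KN1 has 75.5% of its cells at 0, whereas XN1 and CN4 have their largest groups at 1 gene (38.1% and 38.4%).

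Whether members were captured in the same cells more often than their separate fractions predict was examined with a co-capture ratio. This is the number of cells with both genes over the number expected if the genes were independent within each of 20 strata of cells of like total reads. Among 123 combinations of pair and line with both members in at least 1% of cells, 9 intervals lay above 1, 0 lay below 1, and 114 included 1. The intervals treat the number of cells with both genes as a Poisson count. For common genes, such intervals are wider than the spread expected at fixed fractions. An interval that includes 1 is thus no sign of independence. The matching share over all gene pairs was not computed, so the 9 are given as a description. The median ratio was 1.05 in XN4, 1.02 in XN1, 1.04 in CN4, and 1.08 in KN1. When strata were not used, CN4 had a median of 1.16, KN1 of 1.36, XN1 of 1.10, and XN4 of 1.47, so the overlap moved with the total reads of the cells. The most frequent pair was *Fzd1* with *Fzd3* in CN4, in 34.9% of cells at a ratio of 1.01 (0.987 to 1.04). In XN1, it was *Fzd3* with *Fzd9*, in 23.7% of cells at 0.997 (0.963 to 1.03), and in XN4 *Fzd1* with *Fzd2*, in 22.0% at 1.04 (0.990 to 1.08).

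Of the 9 ratios with intervals above 1, 4 involved *Fzd10* in CN4. *Fzd10* was captured with *Fzd1* in 2930 CN4 cells, at a ratio of 1.10 (1.06 to 1.14). Its ratio was 1.11 with *Fzd9* (1.04 to 1.19), 1.14 with *Fzd8* (1.04 to 1.24), and 1.14 with *Fzd5* (1.02 to 1.26). The CN4 ratio of *Fzd8* and *Fzd9* was 1.25 (1.08 to 1.43). In thinned cells without strata, the ratios of *Fzd5* with *Fzd10* and of *Fzd8* with *Fzd9* were below 1, at 0.643 and 0.917. These 2 values have no interval and rest on few cells, as *Fzd5* and *Fzd8* were captured in 68 and 84 of 3158 thinned CN4 cells. In XN4, the ratio of *Fzd4* and *Fzd7* was 1.125 (1.03 to 1.22) and that of *Fzd1* and *Fzd4* 1.08 (1.00 to 1.15). The others were *Fzd7* with *Fzd8* in XN1 at 1.23 (1.03 to 1.45) and *Fzd1* with *Fzd9* in KN1 at 2.58 (1.04 to 5.32), the latter from 7 cells.

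Dividing cells were taken as those with reads of at least 2 of *Mki67*, *Top2a*, and *Hmgb2*, and were compared with the other cells after thinning. They were 1055 of 3927 cells in XN4, 1072 of 3905 in XN1, 1066 of 3975 in KN1, and 2113 of 3448 in CN4. The thinned sets held 1024 dividing and 2360 other cells in XN4, 920 and 2209 in XN1, 1027 and 2369 in KN1, and 2014 and 1144 in CN4. Before thinning, dividing cells were deeper, with medians of 13575 against 6277 reads in XN4 and 7282 against 5561 in CN4. The intervals of the 2 groups were apart for 6 of 38 combinations of member and line, beside 18% of those of all genes listed. Among genes in at least 1% of thinned cells, they were apart for 6 of 30, beside 24%. The Frizzleds were thus apart about as often as other genes, and the 6 are given as a description. *Fzd2* was captured more often in dividing cells, in 39.7% against 31.4% in XN4 and in 25% against 17.3% in CN4. In XN1 (15.8% against 13.3%) and KN1 (1.95% against 1.77%), its intervals overlapped. *Fzd1* and *Fzd10* were captured less often in dividing CN4 cells, in 21.3% against 28.9% and in 16.7% against 21.2%, respectively. With *Mki67* alone as the mark of dividing cells, 5 of the 6 intervals remained apart and those of *Fzd10* in CN4 overlapped (15.1% to 18.6% against 18.3% to 22.7%). *Fzd9* was captured less often in dividing XN1 cells, in 26.4% against 33.7%.

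The levels differed in the same direction for most of these. In CN4, *Fzd1* was at 90.5 RPM in dividing and 144 in other cells, *Fzd10* at 68.9 and 88.3, and *Fzd2* at 103 and 71.6. In XN1, *Fzd9* was at 112 in dividing and 160.0 in other cells, and in XN4, *Fzd2* was at 189 and 165. *Fzd3* was captured more often in dividing KN1 cells (18.5% against 13%), but its level hardly differed (153 and 149 RPM), and dividing KN1 cells had more genes (a median of 1187.5 against 749). In KN1, the *Fzd2* level was lower in dividing cells (13.5 against 15.8), whereas its fraction was slightly higher. The cells of each line share 1 library, so these differences were not tested.

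**Figure D5:**
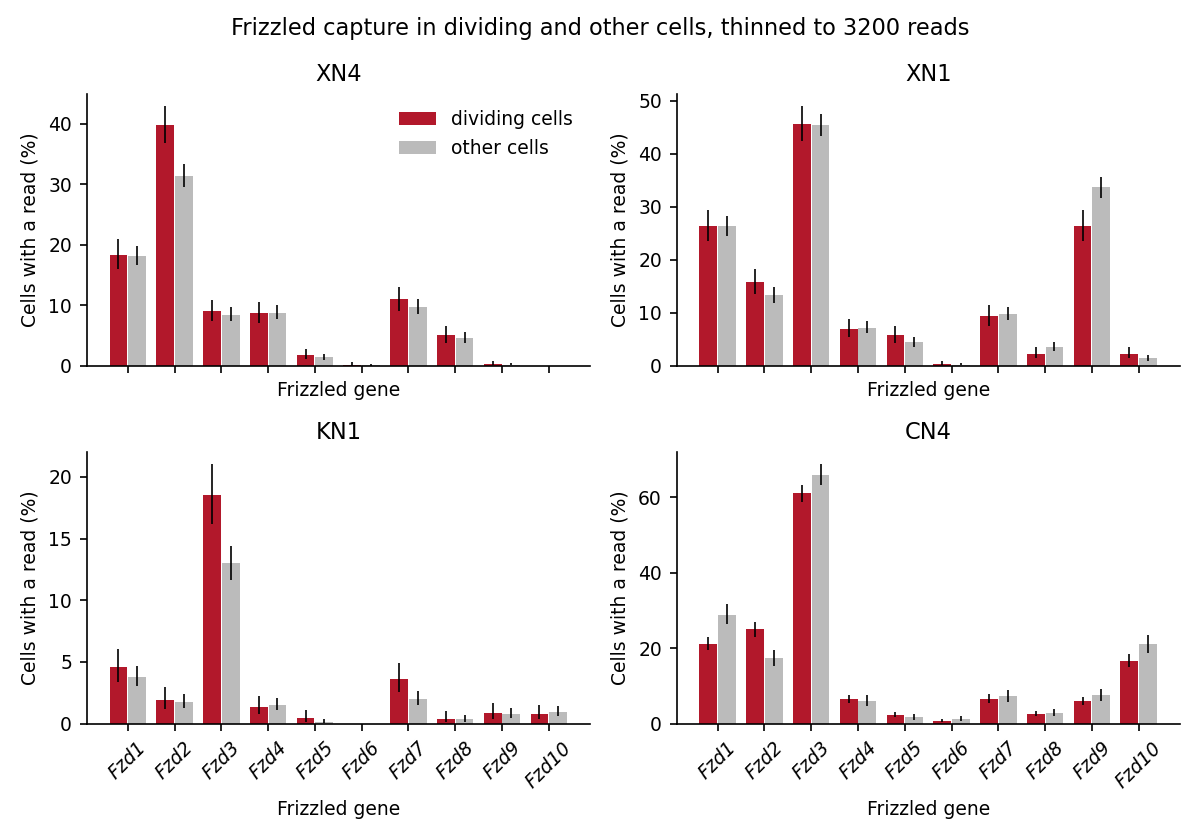
Percentage of dividing (red) and other (grey) cells with a read of each Frizzled gene, thinned to 3200 reads, with exact 95% binomial intervals, 1 panel per line (the vertical scales differ). *Fzd2* is higher in dividing cells of XN4 and CN4, and *Fzd1* and *Fzd10* are lower in dividing CN4 cells, the latter not with *Mki67* alone.

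Other genes captured with each member were ranked by the same ratio, for 22 combinations of member and line and 2839 to 8361 genes in at least 10% of cells. No gene reached the ratio of 1.5 set for naming a partner. The highest values, named after they were seen, were those of *Fzd9* in CN4 with the lipid transporter gene *Abca1* (1.48; 1.34 to 1.63), the immediate early gene *Fosb* (1.44; 1.30 to 1.60), and the potassium channel gene *Kcnn2* (1.41; 1.29 to 1.55). The 99th percentile over all genes was 1.17 for *Fzd9* in CN4 and 1.03 to 1.18 over the 22 combinations.

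The rest of the pathway was followed with a list of 76 genes by role. Past 2-fold were 20 of the 40 genes counted between XN1 and KN1 (50.0%, beside 46.9% of all genes), and 23 of 43 between CN4 and KN1 (53.5%, beside 42.1%). Between XN4 and KN1 they were 24 of 37 (64.9%, beside 43.9%), and between CN4 and XN1 19 of 43 (44.2%, beside 17.6%). Between XN4 and XN1 they were 29 of 40 (72.5%, beside 31.2%), and between XN4 and CN4 30 of 43 (69.8%, beside 33.1%). Over the 4 lines, 34 of 37 genes listed throughout and captured in at least 5% of the cells of a line differed at least 2-fold between the highest and the lowest line. Their median was 6.30-fold, beside 67.2% and 2.59-fold for all genes. An exception was *Smo*, the receptor of hedgehog signaling that shares the Frizzled fold, at 167 RPM in XN4, 123 in XN1, 154 in CN4, and 200.0 in KN1, or 1.62-fold. KN1 was the highest line for 11 of the 37 (29.7%), beside 29.9% of all genes.

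Among the ligands, *Wnt5a*, a ligand of polarity signaling, was highest in XN1 (225 RPM) and lowest in XN4 (28.8), with 92.7 in KN1 and 89.6 in CN4. Its relative *Wnt5b* was at 46.1 in KN1, 38.6 in XN1, 20.0 in CN4, and 12.6 in XN4. The carrier *Wls*, which takes Wnts to the cell surface, was highest in XN1 (613) and at 259 to 352 in the other lines. *Porcn*, which adds lipid to Wnts, was at 7.58 to 15.7. XN1, which had the most *Fzd9*, thus also had the most *Wnt5a* and *Wls*.

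Of the coreceptors and other Wnt receptors, 6 of 10 were highest in XN4 and 3 of 10 in KN1, beside 27.5% and 29.9% of all genes. *Tspan12*, a tetraspanin that assists norrin at Fzd4, was at 380.3 RPM in KN1, 137 in XN1, 103 in CN4, and 12.5 in XN4, whereas *Fzd4* itself was highest in XN4. *Reck* and *Adgra2*, which together present Wnt7 ligands to Frizzleds, were both highest in XN4, at 59.0 and 47.2, and at 4.31 to 24.2 and 2.57 to 6.54 in the other lines. *Ror1*, a receptor for Wnt5a, was at 195 in KN1 and 136 in XN4, and at 18.6 and 21.2 in XN1 and CN4. The intervals of XN1 (16.8 to 20.7) and CN4 (19.3 to 23.1) overlapped.

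Of the 5 genes for receptor turnover, the 3 that were counted were highest in KN1, beside 29.9% of all genes. Of the others, *Lgr6* was highest in XN4 (4.89 RPM against 1.38 in KN1), and *Rnf43* was higher in CN4 (1.48) than in KN1 (0.363). *Znrf3* was at 228 RPM in KN1, 93.9 in CN4, 38.4 in XN1, and 33.4 in XN4. *Lgr5* was at 109 in KN1, 60.8 in CN4, 6.12 in XN1, and 0.265 in XN4. *Lgr4* was at 64.8 in KN1 and 20.3 to 25.2 elsewhere.

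Of the 16 inhibitors and their receptors, the membrane protein Kremen1 included, 5 were counted, with a median of 11.1-fold between the highest and the lowest line, beside 2.59-fold for all genes. *Sfrp1*, which binds Wnts through a Frizzled-like domain, was at 121 RPM in XN4, 23.3 in KN1, 12.5 in CN4, and 0.830 in XN1. Its relative *Sfrp2* was highest in CN4 at 41.8 and at 3.77 to 6.59 elsewhere, and *Wif1* was also highest in CN4, at 17.3 against 0.265 to 2.32. *Kremen1*, a receptor for Dkk inhibitors, was highest in XN1 at 159, with 90.2 in CN4 28.9 in XN4, and 28.7 in KN1.

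Of the polarity partners, *Celsr1* and *Celsr2* were scarce in XN4, at 0.698 and 0.843 RPM. *Celsr2* was at 70.2 to 89.9 in the other lines, and *Celsr1* was highest in CN4 at 34.6. XN4 was also the line with the least *Fzd3*, which acts with Celsr proteins. *Prickle2* was at 148 in KN1, 99 in XN4, 34.4 in XN1, and 17.3 in CN4, and *Daam1* was at 329.7, 39.6, 190.1, and 108, respectively. Among the target genes, *Axin2* was at 94.9 in CN4, 20.9 in XN1, 17.1 in KN1, and 3.01 in XN4, and *Nkd1* at 47.5, 11.7, 14.5, and 3.44, respectively. *Lef1* and *Tcf7*, which bind DNA with β-catenin, were highest in XN1, at 13.8 and 25.3, against 0.818 to 1.48 and 1.90 to 6.36 in the other lines. CN4 had the most *Axin2*, *Nkd1*, *Fzd3*, and *Fzd10*, whereas XN1 had the most *Lef1* and *Tcf7*. Whether the activator has a part in these levels was not tested, as each line is 1 library.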

How the data were processed

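One BD Rhapsody whole-transcriptome library per line was used (XN4, XN1, KN1, and CN4). The read counts per gene and cell that the authors deposited for CN4, XN1, and XN4 were made with BD Rhapsody WTA pipeline 1.12.1 on GRCm38 with GENCODE M19 and intronic reads counted. The normalized tables of the 4 lines hold natural log values as deposited, ln(1 + 10000 × reads / cell sum), of about 4000 randomly chosen cells without ribosomal protein and mitochondrial genes, made with Seurat 4.3.0 per the labels. These were turned back into reads, which came out whole within 0.01 for 100% of values. The paper describes the same pipeline and genome for KN1. The pipeline version, annotation, and intron setting for KN1 are not given in the sources used here.

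Levels, ratios, and exact intervals were computed in Python 3.11.15 with scipy 1.17.1. No doublet caller was run and no cell was removed as a doublet, and thinning left out cells under 3200 reads. The fold calls were checked on simulated Poisson counts with known changes, and the co-capture ratio on simulated independent pairs. Neither simulation held repeated reads of a molecule, and the coverage of the intervals was not checked. The members and gene lists were chosen with earlier results of these data known. All members were named; pathway genes were the up to 4 per role with the largest ratio between lines, and partners were the up to 3 genes with a ratio of at least 1.5. Gene models are from GENCODE M21 (GRCm38).

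Alternatives were each cell weighted alike, median-of-ratios scaling, thinning, leaving out the 5% of cells with most reads, no capture filter, 3-fold, the tables of all reads, at least 2 reads for capture, 5 or 50 strata, strata of genes detected, and *Mki67* alone for dividing cells. Leaving out shared cell indices, leaving out members not clear of stray reads (in fraction or read level), and keeping only cells with at least 1000 genes were chosen after seeing the data.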

Additional observations from a re-analysis of the deposited data

How the results depend on the processing

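Of the 30 member ratios past 2-fold, 28 stayed past it under each alternative that could be run for them (6 to 8 per ratio), the 3-fold limit aside, and 0 changed sign. The exceptions were *Fzd5* of XN4 over KN1, which fell to a log2 ratio of 0.43 at lowest, and *Fzd5* of CN4 over KN1, at 0.73. Of the 23 ratios under 2-fold, 21 stayed under it. *Fzd5* of CN4 over XN1 (-1.15 at lowest) and *Fzd8* of XN4 over CN4 (1.01 at highest) passed it. Counts of members, those not clear of stray reads included, moved with 3-fold in place of 2-fold. They went from 8 to 4 between XN4 and KN1 and from 7 to 3 between CN4 and KN1 (beside 25.7% and 21.8% of all genes). They also moved with the tables of all reads, from 3 to 5 between XN4 and CN4, where *Fzd10* was then counted. In thinned cells without strata, the co-capture ratios of *Fzd5* with *Fzd10* (0.643) and *Fzd8* with *Fzd9* (0.917) in CN4 fell below 1. They rest on few cells, as *Fzd5* and *Fzd8* were captured in 68 and 84 of 3158 thinned CN4 cells. No interval was computed for them, so a reversal is not shown, and the cause of the shift was not tested. No paired analysis was possible because each line is 1 library. With *Mki67* alone, the *Fzd10* intervals of dividing and other CN4 cells overlapped. Leaving out members not clear of stray reads, chosen after the data had been seen, moved the count between XN4 and CN4 from 3 to 1, and gave 4, 6, and 6 in place of 5, 8, and 7 for XN1, XN4, and CN4 against KN1, and 3 in place of 4 between XN4 and XN1. The remaining settings moved these counts by 1 member at most, with 7 between XN4 and KN1, 6 between CN4 and KN1, 4 between CN4 and XN1, 5 between XN4 and XN1, and 2 between XN4 and CN4 as the values farthest from the main ones. The fractions of *Fzd6* in XN4, *Fzd8* in KN1, and *Fzd10* in XN4 were not above those of stray genes. The fraction of *Fzd5* in KN1, which was kept in all counts, had an interval that included the stray level.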
